A study of Mus musculus with 12 samples.

Results

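The genes described here are 29 genes of fatty acid oxidation and ketone body metabolism, measured by RNA sequencing in the full-thickness distal colon of 12 mice. They were taken by gene symbol from the deposited table, transcript values were added up per gene, and all 29 were among the 35240 gene symbols of the table. The 6 Spry2IEKO mice (Vil1::Cre;Spry2-f/f) carry Cre under the villin promoter and lose Sprouty2, an intracellular regulator of growth factor signaling, in the intestinal epithelium. The 6 Spry2FF mice (Spry2-f/f) are littermates without Cre, and the mice of both groups are homozygous for the floxed Spry2 allele and untreated. The mice came from 2 litters, with 3 mice of each genotype in litter A and 3 in litter B. There were 3 males among the Spry2FF mice and 1 among the Spry2IEKO mice. They were Spry2FF replicates 2 and 3 of litter A, and Spry2FF replicate 9 and Spry2IEKO replicate 8 of litter B. All Spry2IEKO mice of litter A were thus female, so genotype and sex partly coincide there. The labels give both 6 weeks and 8 weeks as the age. Because the tissue holds muscle, stroma and epithelium, fewer cells of a type and less RNA per cell cannot be told apart.

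Colonocytes draw much of their energy from short-chain fatty acids, above all from butyrate made by gut bacteria. Fatty acids are activated to acyl-CoA, longer chains enter mitochondria through the carnitine shuttle, and each turn of the beta-oxidation spiral shortens the chain by a dehydrogenation, a hydration, another dehydrogenation and a thiolytic cut. Electrons leave through the electron transfer flavoprotein, and acetyl-CoA enters the TCA cycle or is turned into ketone bodies. The nuclear receptor PPARα and its coactivator PGC-1α are known to switch on many of these genes.

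The deposited values are transcript abundances normalized for length and library (TPM) that the authors scaled once more between mice, and they are called normalized TPM here. TPM takes transcript length into account, so levels can be compared between genes. Totals of the 12 mice ran from 918816 to 1069158. They are not read counts, so the number of reads behind a value cannot be read from them and no counting interval is given. The methods of the study state a sequencing depth per library, which does not give the reads of a gene. Spry2 was 20.04 ± 1.59 (SD, n = 6) in Spry2IEKO and 27.7 ± 3.29 (SD, n = 6) in Spry2FF mice, and the two-sided exact permutation p of 0.002165 is the lowest possible with 6 mice in each group. Each of the 8 pan-epithelial markers, among them Epcam and Krt8, was present, and their sum ran from 7891 to 11510.

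The 2 mice Spry2IEKO replicates 4 and 5 stood apart in fat markers. The sum of 10 white adipocyte markers was 1207 in replicate 5 and 646 in replicate 4, against 32.1 to 133 in the other 10 mice. Replicate 5 also held brown adipocyte RNA, with Ucp1, the uncoupling protein of brown fat, at 64.0 normalized TPM against at most 0.122 in the other 11 mice. Results are therefore also given without these mice where they change.

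Stretches upstream of 3 start regions are shown because their genes carry the results below. Bdh1 was the single gene of the set in which the genotypes did not overlap, and RefSeq gives it 2 starts on the plus strand of chromosome 16. Hadha and Hadhb, the subunits of the trifunctional protein, start head to head on chromosome 5 and had their highest and lowest levels in the same mice. Echs1 had the lowest p of the set for a genotype difference that varied with the litter. Sequences are the 250 bases before the RefSeq start (GRCm38.p6), read 5′ to 3′ along the gene, at chr16:31422047-31422296 and chr16:31428503-31428752 (Bdh1, plus strand), chr5:30155003-30155252 (Hadhb, plus strand) and chr7:140116422-140116671 (Echs1, minus strand). Capitals mark a match to the direct repeat described below.
Bdh1, start 1: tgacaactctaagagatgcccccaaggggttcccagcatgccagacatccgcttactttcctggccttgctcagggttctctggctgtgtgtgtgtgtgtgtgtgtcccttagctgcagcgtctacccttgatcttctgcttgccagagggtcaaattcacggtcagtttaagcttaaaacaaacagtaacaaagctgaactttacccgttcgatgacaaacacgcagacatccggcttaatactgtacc
Bdh1, start 2: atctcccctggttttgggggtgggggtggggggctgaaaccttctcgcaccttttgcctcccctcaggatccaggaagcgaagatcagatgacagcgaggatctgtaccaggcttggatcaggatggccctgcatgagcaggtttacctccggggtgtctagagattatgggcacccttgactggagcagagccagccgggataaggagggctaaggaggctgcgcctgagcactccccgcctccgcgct
Hadhb: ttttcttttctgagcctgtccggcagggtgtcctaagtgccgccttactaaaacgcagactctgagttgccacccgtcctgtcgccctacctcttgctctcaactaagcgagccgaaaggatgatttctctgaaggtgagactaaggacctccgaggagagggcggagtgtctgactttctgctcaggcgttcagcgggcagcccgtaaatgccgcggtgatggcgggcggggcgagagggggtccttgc
Echs1: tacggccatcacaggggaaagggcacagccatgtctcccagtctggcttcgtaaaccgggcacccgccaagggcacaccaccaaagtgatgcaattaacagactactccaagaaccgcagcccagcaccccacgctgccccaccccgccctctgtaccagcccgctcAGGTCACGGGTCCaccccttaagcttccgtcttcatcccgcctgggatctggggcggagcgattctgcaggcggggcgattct

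The direct repeat is the form of site read by PPAR with its partner RXR, with 2 copies of AGGTCA and 1 free base between them. It was searched on both strands with up to 2 mismatches, over the 250 bases before and 50 bases after each start. RefSeq promoters were found for 26 of the 29 genes (Acat1, Decr1 and Acaa2 had none in the table), and 4 of the 26 (15.4%) held a match, against 4.40% of all 27025 genes in the table. The matched bases, each read along its own strand, were the following.
Fabp1: AGGCCATAGGTCA
Echs1: AGGTCACGGGTCC
Etfa: AGGGCAAAGGTAA
Slc25a20: AGGTGAAAGGTCG
The Fabp1 match had 1 mismatch and lay 67 to 55 bases before the start on the opposite strand. Those of Echs1 and Etfa had 2 mismatches each and lay 83 to 71 and 77 to 65 bases before the start, the latter on the opposite strand. That of Slc25a20 also had 2 mismatches and lay 6 to 18 bases after the start. An exact TCAAGGTCA, the site of the ERR receptors, which overlaps the AGGTCA copy of the repeat, was in 0 of the 26 genes and in 0.466% of all genes. A match describes letters only.

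Most genes of the set were expressed at high levels. Means over the 12 mice were at least 100 normalized TPM for 11 genes and between 10 and 100 for 15. The median gene of the 28 with a mean of at least 0.5 was at 89.2, against 12.2 over all 15879 genes above that mean. Together the 29 genes made up 0.265% to 0.333% of the total of a mouse. The plot of levels by mouse shows how narrowly most genes varied. Their median coefficient of variation over the 12 mice was 11.7%, beside 12.3% for 5992 genes at similar levels and 18.3% for all genes.

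**Figure D1:**
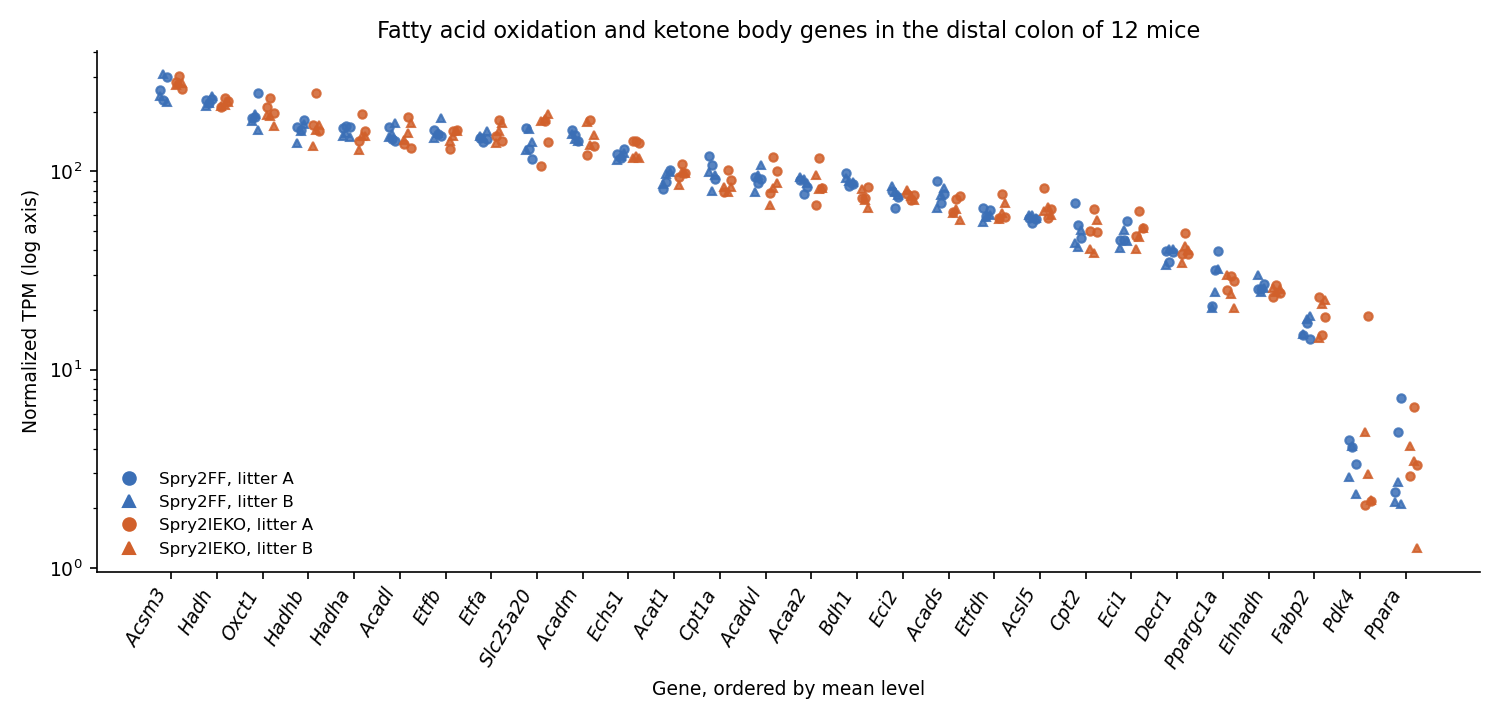
Normalized TPM (log axis) of 28 genes, those averaging 0.5 or more, in each of the 12 mice, ordered by mean level. Colours stand for genotype and symbols for litter. Levels ran from 270 for Acsm3 to 3.58 for Ppara, points of both genotypes lie close together for most genes, and the single high Pdk4 point, at 18.7, is Spry2IEKO replicate 5.

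The highest level belonged to Acsm3, a mitochondrial ligase that activates medium-chain fatty acids. It was 225 to 309 in Spry2FF mice (257, 230 and 300 in litter A, and 241, 309 and 225 in litter B). In Spry2IEKO mice it was 284, 304 and 260 in litter A and 274, 281 and 280 in litter B, inside the Spry2FF range. Hadh, the short-chain 3-hydroxyacyl-CoA dehydrogenase, followed and was the steadiest gene, with a coefficient of variation of 4.08%. It read 230, 222 and 232 (litter A) and 214, 222 and 241 (litter B) in Spry2FF mice, and 212, 236 and 227 (litter A) and 214, 217 and 225 (litter B) in Spry2IEKO mice. Oxct1, which activates acetoacetate so that ketone bodies can be used as fuel, was the third.

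Of the gene products that sit next to each other in the pathway, several had close levels. The flavoprotein subunits Etfa and Etfb averaged 154 and 155, and the trifunctional protein subunits Hadha and Hadhb 157 and 169. The medium-chain and long-chain acyl-CoA dehydrogenases Acadm and Acadl averaged 150 and 156. The very long-chain enzyme Acadvl, at 90.8, and the short-chain enzyme Acads, at 71.1, were lower. In the carnitine shuttle the carrier Slc25a20 averaged 152, the outer membrane transferase Cpt1a 92.5 and the inner membrane transferase Cpt2 50.6. At the low end stood Ppara at 3.58 and Pdk4, a kinase that switches pyruvate dehydrogenase off, at 4.51. Fabp1, the liver-type fatty acid binding protein, was listed at 0 in 9 of 12 mice and was 0.594, 0.306 and 0.534 in Spry2FF replicate 13 and Spry2IEKO replicates 8 and 12, all of litter B. Its intestinal relative Fabp2 was present in all 12 mice, at 14.3 to 23.4.

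The question of the first comparison was whether loss of epithelial Sprouty2 went with a change of these genes. None of the 28 genes tested passed an adjusted p of 0.05 (limma on log2(normalized TPM + 0.5), Benjamini-Hochberg over all genes), where 0.0315% of all 15879 genes did. At an unadjusted p under 0.05 there were 3, with Bdh1 and Acads lower and Acsl5 higher in Spry2IEKO mice, beside a background of 6.18% of all genes. The differences of the 28 genes ran from -0.27 to 0.21 on the log2 scale, with 14 above and 14 below 0. Their median was 0.0057 and that of all genes 0.0076. For 25 of the 28 the 95% interval lay within ±0.5, that is within a 1.41-fold change either way, and the 3 with wider intervals were Slc25a20, Ppara and Pdk4.

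**Figure D2:**
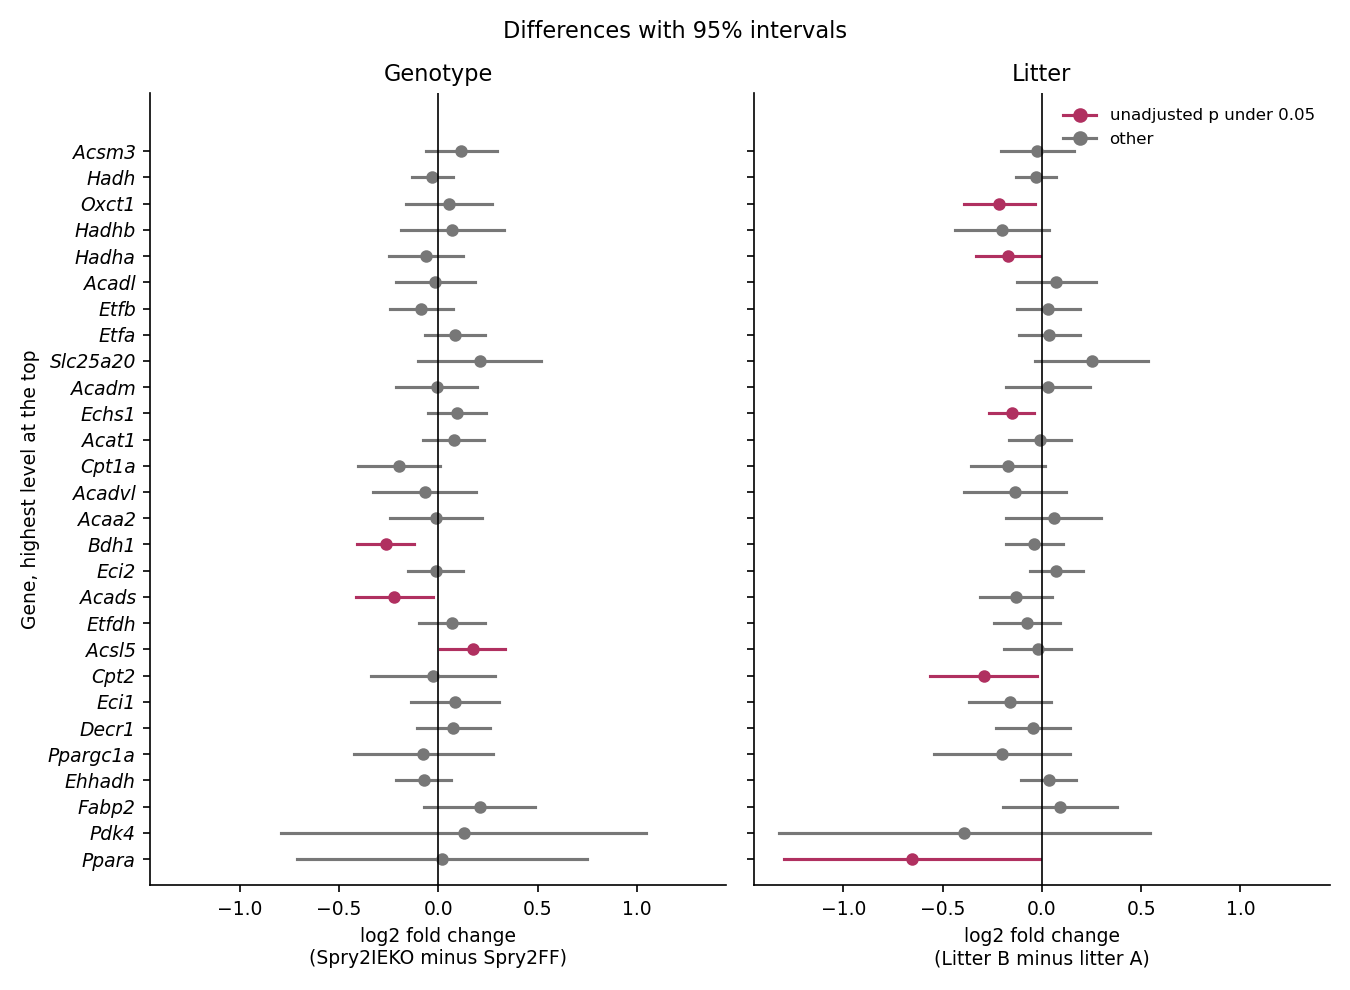
log2 fold change (x axis) of 28 genes (y axis) between genotypes (left) and between litters (right), with 95% intervals from limma. Points in red have an unadjusted p under 0.05. Bdh1 at -0.27 is the genotype difference farthest below 0, and Ppara at -0.65 the litter difference farthest below 0, with intervals of Ppara and Pdk4 much wider than the rest.

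Among the ketone body genes, Bdh1 encodes the mitochondrial dehydrogenase that interconverts acetoacetate and 3-hydroxybutyrate. It was 98.4, 84.9 and 86.5 in the litter A and 93.0, 89.1 and 88.2 in the litter B Spry2FF mice. In Spry2IEKO mice it was 73.8, 73.6 and 83.5 in litter A and 81.9, 71.5 and 65.5 in litter B. All 6 Spry2IEKO mice were thus below all 6 Spry2FF mice, a separation that 0.403% of all 15879 genes had (64 genes, in either direction). The means were 75.0 ± 6.72 (SD, n = 6) and 90.0 ± 4.93 (SD, n = 6), which is 16.7% lower (log2 fold change -0.27, standard error 0.0665, unadjusted p = 0.00151 and adjusted p = 0.445 by limma). Over the alternatives, those without 1 mouse included, its adjusted p by limma ran from 0.195 to 0.9996. The exact permutation test gave p = 0.002165, the smallest it allows, which follows from this separation. Litter A alone showed -0.22 and litter B alone -0.31. Neither litter held an overlap, which the separation over all mice already implies, and 3 mice against 3 cannot give a p below 0.1. Without any single mouse it stayed between -0.30 and -0.23, and the unadjusted limma p was under 0.05 in 12 of 12 such fits.

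The main transcripts of Bdh1 each had a lower mean in Spry2IEKO mice. The 3 most abundant transcripts, all coding, made up nearly all of its level, and their annotated starts lie at 31428748, 31429299 and 31422280 on chromosome 16 (GENCODE M21). The first of these, near the second RefSeq start, was 36.2 ± 2.13 (SD, n = 6) in Spry2IEKO and 40.9 ± 3.28 (SD, n = 6) in Spry2FF mice. The second was 22.9 ± 8.07 against 29.1 ± 8.22 and the third, at the first RefSeq start, 14.2 ± 4.74 against 17.8 ± 6.24 (SD, n = 6 each). Each alone overlapped between the genotypes, and reads shared by the transcripts can be split unevenly. With the largest transcript left out, the sum of the others still separated the genotypes (log2 difference -0.35, exact p = 0.002165).

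Among the cell type marker lists given here, that of goblet cells alone had an exact p under 0.05 between the genotypes. The sum of 8 goblet cell markers had a median of 10280 (8020 to 12160) in Spry2FF and 15630 (9611 to 18560) in Spry2IEKO mice (log2 difference 0.57, exact p = 0.0108). The 10 absorptive colonocyte markers had medians of 7603 (5946 to 8616) and 5734 (4518 to 9363), with a log2 difference of -0.29 (exact p = 0.128). The 8 pan-epithelial markers had medians of 9951 (9166 to 11510) and 9140 (7891 to 10340), with a log2 difference of -0.15 (exact p = 0.0649). The part of these cell types in the Bdh1 result was not tested.

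The other ketone body genes of the set had small differences above 0 that did not pass the test. Oxct1 was 194 ± 29.5 (SD, n = 6) in Spry2FF and 200 ± 22.2 (SD, n = 6) in Spry2IEKO mice, with a difference of 0.05 (95% interval -0.16 to 0.27). Acat1, the mitochondrial acetoacetyl-CoA thiolase, was 92.4 ± 7.89 and 97.4 ± 7.51 (SD, n = 6 each), with a difference of 0.08 (95% interval -0.076 to 0.23).

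Acads opens the spiral for butyryl-CoA and other short chains. It was 89.8, 69.2 and 76.6 in litter A and 65.2, 76.5 and 82.2 in litter B of the Spry2FF mice. In Spry2IEKO mice it was 62.1, 72.5 and 75.2 in litter A and 61.7, 64.8 and 57.0 in litter B. The groups overlapped over all mice and within litter A, while in litter B the 3 Spry2IEKO mice were below the 3 Spry2FF mice. Means of 65.6 ± 6.96 and 76.6 ± 8.85 (SD, n = 6 each) gave a difference of -0.22 (standard error 0.0892, unadjusted p = 0.0273 and adjusted p = 0.753 by limma). The unadjusted p was under 0.05 in 7 of 12 fits without 1 mouse. The other acyl-CoA dehydrogenases differed by -0.01 (Acadm), -0.01 (Acadl) and -0.07 (Acadvl).

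Acsl5, a long-chain acyl-CoA synthetase of the intestine, was 58.6, 54.8 and 57.5 (litter A) and 60.1, 59.99 and 58.1 (litter B) in Spry2FF mice. In Spry2IEKO mice it was 82.6, 58.5 and 64.8 (litter A) and 62.9, 66.5 and 60.7 (litter B). Of the 6 Spry2IEKO mice, 5 were above all Spry2FF mice, and replicate 5 was inside their range. The difference was 0.17 (standard error 0.0765, unadjusted p = 0.0424 and adjusted p = 0.794 by limma; exact p = 0.0108), and it was 0.11 without Spry2IEKO replicate 4, the highest mouse. The unadjusted p by limma was under 0.05 in 4 of 12 fits without 1 mouse, and it was lost with sex in the fit, with equal totals, without the trend, in females alone and in each litter alone. Acsl5 overlaps the gene Zdhhc6, at 34.1 normalized TPM, on the opposite strand, and whether the counting used strand is not given in the sources used here.

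Genes of the carnitine shuttle had differences of both signs, none past the test. Cpt1a, the step that controls entry of long chains, was 99.1 ± 13.7 in Spry2FF and 85.9 ± 8.70 in Spry2IEKO mice (SD, n = 6 each), with a difference of -0.20 (unadjusted p = 0.0569 and adjusted p = 0.826 by limma). With litter in the fit its unadjusted p was 0.0366 (adjusted p = 0.573 by limma), and with sex in the fit 0.160. The fit with litter had 4 genes of the set at an unadjusted p under 0.05, beside 8.2% of all genes. Slc25a20 was 141 ± 20.4 and 164 ± 33.4, with a difference of 0.21 (95% interval -0.10 to 0.52), and Cpt2 differed by -0.02 (95% interval -0.34 to 0.29). In litter B the Slc25a20 values of all 3 Spry2IEKO mice, at 179, 184 and 195, were above those of the 3 Spry2FF mice, at 129, 164 and 140. In litter A they overlapped, at 107, 179 and 141 against 165, 129 and 115.

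The estimates for the remaining enzymes lay close to 0. The electron carriers Etfa, Etfb and Etfdh differed by 0.08, -0.09 and 0.07, and the auxiliary enzymes of unsaturated chains Eci1, Eci2 and Decr1 by 0.08, -0.01 and 0.08. Differences were -0.06 for Hadha, 0.07 for Hadhb, -0.03 for Hadh, -0.01 for the thiolase Acaa2 and -0.07 for the peroxisomal enzyme Ehhadh. Ppargc1a, which encodes PGC-1α, was 28.3 ± 7.61 in Spry2FF and 26.2 ± 3.75 in Spry2IEKO mice (SD, n = 6 each). Ppara was 3.58 ± 2.06 and 3.59 ± 1.70 (SD, n = 6 each), with an interval from -0.71 to 0.75 that leaves its genotype difference poorly determined.

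The second comparison set litter B against litter A, with genotype as a term in the fit. None of the 28 genes passed an adjusted p of 0.05 by limma, whereas 4.38% of all genes did (696 genes, 171 higher and 525 lower in litter B). At an unadjusted p under 0.05, 5 did, all lower in litter B, against 21.9% of all genes. None separated the litters without overlap, which 3.72% of all genes did. The median difference of the 28 was -0.04, close to the -0.05 of all genes, with 9 above and 19 below 0. The intervals of 23 lay within ±0.5.

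Echs1, the short-chain enoyl-CoA hydratase, had the lowest p of the 5. In litter A it was 122, 118 and 130 in Spry2FF and 143, 142 and 139 in Spry2IEKO mice. In litter B it was 115, 119 and 124 in Spry2FF and 117.5, 119.8 and 116.9 in Spry2IEKO mice. The 3 litter A Spry2IEKO mice were above all 9 others. The litter difference was -0.15 (standard error 0.0517, unadjusted p = 0.0124 and adjusted p = 0.111 by limma). Between genotypes it differed by 0.20 in litter A but by -0.01 in litter B, and the product term was -0.21 (standard error 0.0865, unadjusted p = 0.0308 and adjusted p = 0.998 by limma). Echs1 was the single gene of the set with an unadjusted p under 0.05 for the product, against 4.19% of all genes, and 0 passed the adjusted threshold, as did 0.0126% of all genes. The unadjusted p of the product stayed under 0.05 in 6 of 12 fits without 1 mouse and in 6 of 10 other alternatives. It was lost with sex in the fit, equal totals or no trend, without both mice high in fat markers, and without either of them. It was also lost without Spry2FF replicate 2, 3, 10 or 13. The litter difference kept an unadjusted p under 0.05 without any single mouse but lost it without both mice high in fat markers. Nearly all of the Echs1 level was 1 coding transcript, and the sum of its minor transcripts was higher in litter B (log2 difference 0.40, exact p = 0.00433).

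**Figure D3:**
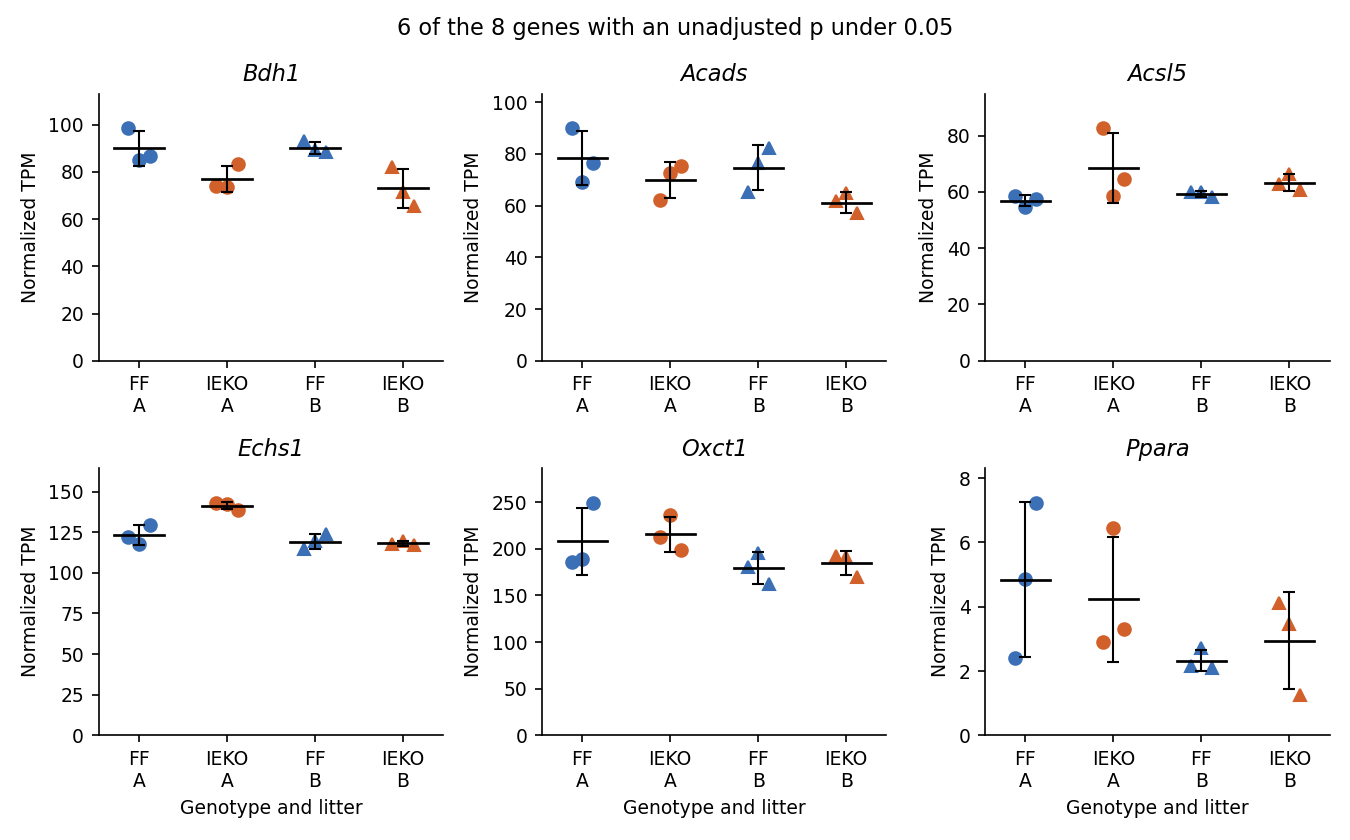
Normalized TPM (y axis) of 6 genes in the 4 combinations of genotype (FF, Spry2FF; IEKO, Spry2IEKO) and litter (A, B), with 3 mice each. Bars across show the mean and whiskers the SD. Bdh1 is lower in Spry2IEKO mice of both litters, and Echs1 is higher in Spry2IEKO mice of litter A (139 to 143) but not of litter B (117 to 120).

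Oxct1 was 185.6, 189.2 and 249.0 in Spry2FF and 213, 236 and 198 in Spry2IEKO mice of litter A. In litter B it was 180.5, 195 and 162 in Spry2FF and 192.5, 191 and 170 in Spry2IEKO mice, so the litters overlapped. The difference was -0.21 (standard error 0.0824, unadjusted p = 0.0238 and adjusted p = 0.154 by limma), with -0.21 in Spry2FF and -0.22 in Spry2IEKO mice. Cpt2 was 69.7, 53.9 and 46.4 in Spry2FF and 50.4, 64.8 and 49.7 in Spry2IEKO mice of litter A, against 43.8, 41.4 and 50.9 and 40.5, 38.7 and 57.0 in litter B. Its difference was -0.29 (standard error 0.124, unadjusted p = 0.0355 and adjusted p = 0.191 by limma). The unadjusted p was under 0.05 in 8 of 12 fits without 1 mouse for Oxct1 and in 6 of 12 for Cpt2.

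Hadha, the subunit with the hydratase and dehydrogenase of the trifunctional protein, was 167, 170 and 167 in Spry2FF and 142, 196 and 160 in Spry2IEKO mice of litter A. In litter B it was 151, 156 and 150 in Spry2FF and 128, 151 and 151 in Spry2IEKO mice. The litters did not overlap among the Spry2FF mice but did among the Spry2IEKO mice. The difference was -0.17 (standard error 0.0742, unadjusted p = 0.0396 and adjusted p = 0.203 by limma), with an unadjusted p under 0.05 in 4 of 12 fits without 1 mouse. In these fits it ran from -0.22, without Spry2IEKO replicate 4, to -0.11, without Spry2IEKO replicate 5. Only 16.7% of the Hadha level was assigned to a coding transcript, and 51.6% to a single transcript annotated as processed, so its sum is not a measure of coding mRNA alone. Its partner Hadhb, with 95.8% in coding transcripts, differed by -0.20 (unadjusted p = 0.0897 and adjusted p = 0.307 by limma). Both had their highest value in Spry2IEKO replicate 5 (196 and 248) and their lowest in Spry2IEKO replicate 8 (128 and 135).

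Ppara had the litter estimate farthest from 0. It was 2.40, 4.87 and 7.22 in Spry2FF and 2.92, 6.46 and 3.31 in Spry2IEKO mice of litter A. In litter B it was 2.16, 2.71 and 2.11 in Spry2FF and 4.10, 3.48 and 1.26 in Spry2IEKO mice. The difference of -0.65 (standard error 0.296, unadjusted p = 0.0471 and adjusted p = 0.222 by limma) had an unadjusted p under 0.05 in only 5 of 12 fits without 1 mouse and in 6 of 13 other alternatives, and lost it with sex in the fit. The 3 highest mice, Spry2FF replicates 3 and 7 and Spry2IEKO replicate 5, were all of litter A. In the opposite direction, Slc25a20 had the highest estimate, 0.25 (95% interval -0.03 to 0.54).

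The most visible pattern within the set was a single mouse. Spry2IEKO replicate 5 had the highest level of 12 of the 28 genes (42.9%) and the lowest of none, while it was the highest for 9.45% of all genes tested. Its median deviation from the mean of the 12 mice was 0.25 on the log2 scale over the set and 0.027 over all genes. The 12 genes were Acat1, Acadm, Acadl, Acadvl, Hadha, Hadhb, Etfa, Etfdh, Eci1, Decr1, Acaa2 and Pdk4. Pdk4 was 18.7 there and 2.07 to 4.86 in the other 11 mice. Hadhb was 248 against 135 to 182, Acaa2 117 against 68.1 to 95.9, and Acadvl 119 against 67.7 to 108. Bdh1, Eci2, Acsl5 and Fabp2 were below the median of the other mice in it, at 73.6, 71.6, 58.5 and 15.0.

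**Figure D4:**
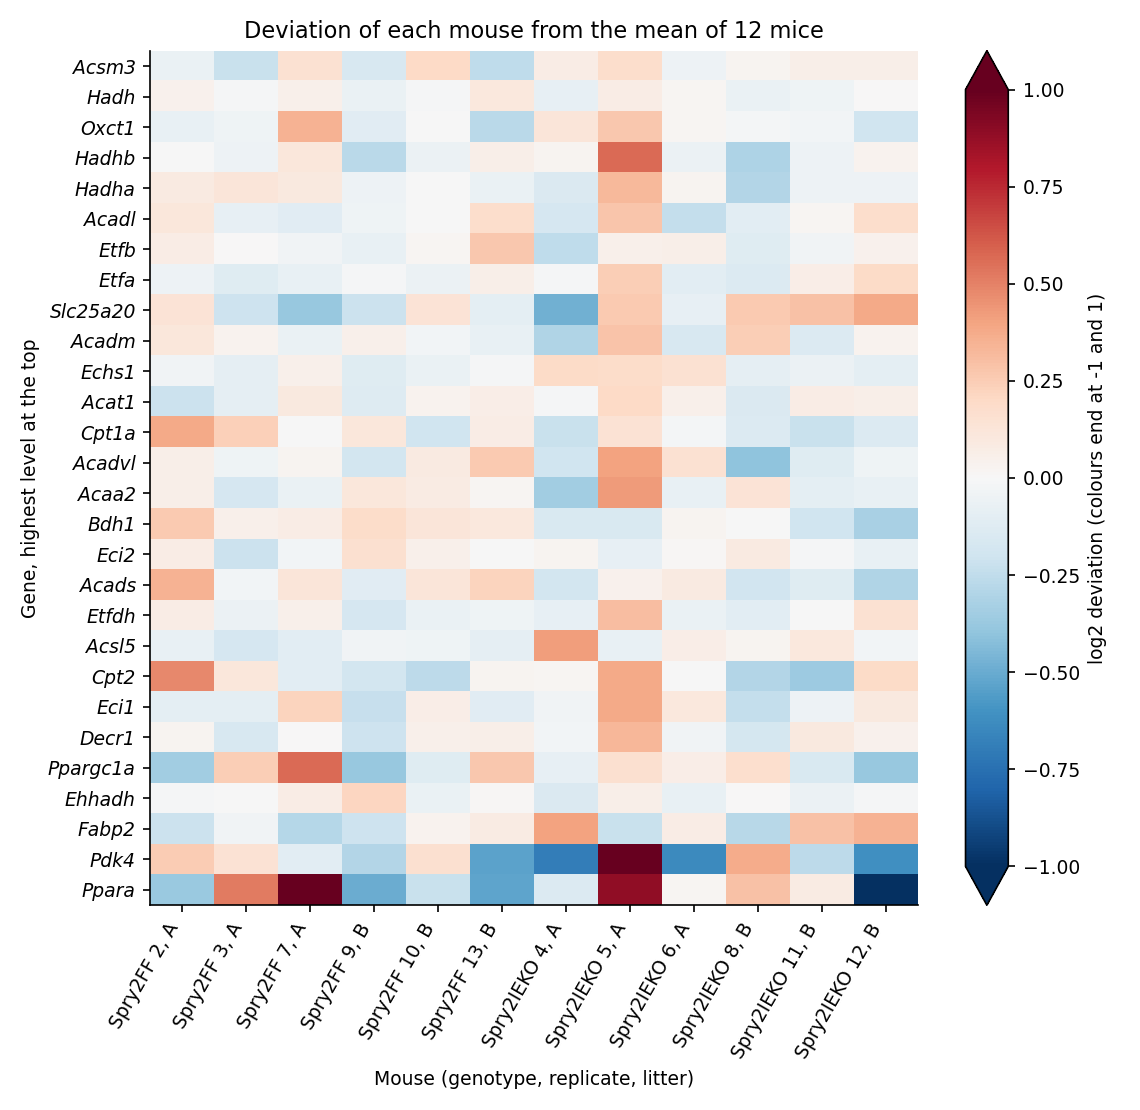
Deviation of each mouse (columns, by genotype, replicate and litter) from the mean of the 12 mice, on the log2 scale, for 28 genes (rows). Red is above and blue below the mean. The column of Spry2IEKO replicate 5 is red for most enzymes, with a median deviation of 0.25, and the Bdh1 row is red in all 6 Spry2FF mice.

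The same mouse was the highest of the 12 for 9 of 10 white and 7 of 8 brown adipocyte markers. Adipoq, the fat hormone adiponectin, was 70.8, and the brown fat genes Cidea and Cox8b were 31.2 and 78.8, against at most 0.988 and 3.50 in the other mice. Genes of fat oxidation that heart, muscle and brown fat use were high there as well. Cpt1b, the muscle form of the outer membrane transferase, was 14.4 against 2.24 to 10.5, and Fabp3 16.99 against 1.16 to 4.38. Replicate 5 was also the highest mouse for 7 of 8 fibroblast markers (sum 842, against at most 691 in the other mice). Its pan-epithelial marker sum, 8382, was above only that of replicate 4. Spry2IEKO replicate 4, with Adipoq at 57.8 but Ucp1 listed at 0, had the lowest level of 8 of the 28 genes, beside 8.33% of all genes, and Pdk4 at 2.07. It was also the mouse with the lowest pan-epithelial (7891) and absorptive colonocyte (4518) marker sums, and the highest sums of goblet cell (18560) and leukocyte markers (733, against at most 394 in the others). The part of adipocyte RNA or of these other cell types in the values was not tested.

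**Figure D5:**
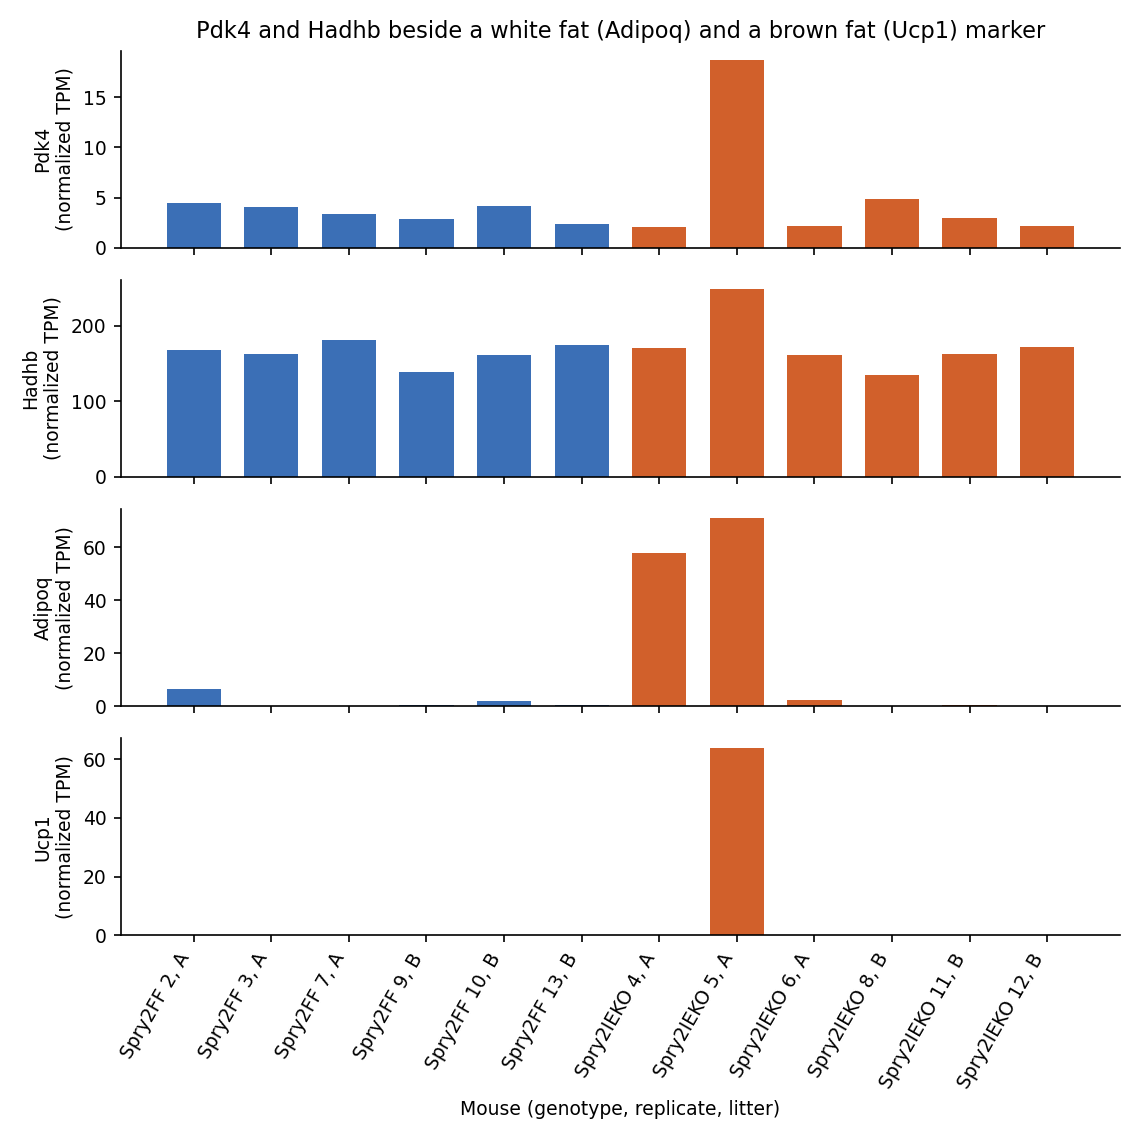
Normalized TPM (y axes, each from 0) of Pdk4, Hadhb, the white fat marker Adipoq and the brown fat marker Ucp1 in each mouse (x axis). Spry2FF mice are blue and Spry2IEKO mice orange. Pdk4 (18.7), Hadhb (248) and Ucp1 (64.0) peak in Spry2IEKO replicate 5, whereas Adipoq is high in both replicate 4 (57.8) and replicate 5 (70.8).

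Leaving out replicate 5 changed which genes had an unadjusted p under 0.05. For genotype they were Bdh1, Acads and Cpt1a, lower, and Acsl5, higher, in Spry2IEKO mice, beside 6.08% of all genes, and the median difference of the set was -0.058 against 0.0011 for all genes. For litter they were Echs1, lower, and Acaa2 and Slc25a20, higher in litter B, beside 18.5% of all genes. Without both replicates 4 and 5 the 5 genes for genotype were these 4 and Slc25a20, higher, and Hadha was the single gene for litter, beside 4.84% and 15.5% of all genes. Without replicate 4 alone the genes for genotype were Bdh1, lower, and Slc25a20, higher, beside 4.64% of all genes. Those for litter were Cpt1a, Cpt2, Echs1, Hadha, Oxct1 and Ppara, all lower in litter B, beside 20.1%. The single gene for the product was Acadvl (below 0) without replicate 4 and Slc25a20 (above 0) without replicate 5, beside 3.94% and 3.81%. No gene of the set passed an adjusted p of 0.05 by limma in any of these fits. Bdh1 differed by -0.26 without replicate 5, and by -0.26 without both (exact p = 0.00476, which rests on the separation already seen over all mice).

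Other genes of the pathway were read from lists of 148 genes, of which 132 could be tested. For genotype 0 passed the adjusted threshold by limma, where 0.0315% of all genes did. No list was tested against the share of all genes. At an unadjusted p under 0.05 there were 11 of the 132, with 3 higher and 8 lower in Spry2IEKO mice, beside 6.18% of all genes. Of 10 further ketone body genes none was among the 11. None of 26 further genes of mitochondrial beta-oxidation was among the 11, and their median difference was 0.01. Of 20 nuclear receptors and coactivators, 4 were among them, all lower. Those of the lists' rule were Ppard, which encodes the PPAR form common in epithelia (74.6 ± 7.89 and 60.5 ± 11.4, difference -0.32, adjusted p = 0.753 by limma), and Hnf4a, a master regulator of enterocyte genes (299 ± 38.6 and 258 ± 23.7, difference -0.21, adjusted p = 0.781 by limma). Of 19 genes of uptake and activation, 2 were higher, among them the long-chain synthetase Acsl3 (204 ± 38.6 and 251 ± 17.02, difference 0.31, adjusted p = 0.694 by limma). Among peroxisomal genes 1 was higher and 2 lower of 23, and 1 was lower of 17 other PPAR targets and of 18 TCA cycle genes.

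For litter, 2 of the 132 passed the adjusted threshold by limma, both lower in litter B, beside 4.38% of all genes. At an unadjusted p under 0.05 there were 24 (5 higher, 19 lower), beside 21.9% of all genes. Ogdh, a subunit of the 2-oxoglutarate dehydrogenase of the TCA cycle, was 129 to 167 in litter A and 112 to 135 in litter B (difference -0.30, standard error 0.0603, adjusted p = 0.0221 by limma). Cyp4b1, a cytochrome P450 counted here with the PPAR targets, was 1.86 to 3.37 in litter A and 0.719 to 1.69 in litter B, without overlap (difference -0.99, standard error 0.191, adjusted p = 0.0199 by limma). When each mouse was dropped in turn, the adjusted p of Ogdh by limma ran from 0.0184 to 0.0545 and that of Cyp4b1 from 0.0133 to 0.0556, both highest without Spry2IEKO replicate 5. Each was under 0.05 in 9 of these 12 fits, and in 9 of 14 (Ogdh) and 9 of 13 (Cyp4b1) other alternatives. Without both mice high in fat markers neither passed (difference -0.31 and adjusted p = 0.0783 for Ogdh, -0.86 and adjusted p = 0.130 for Cyp4b1, by limma). Of the 20 nuclear receptors and coactivators 7 had an unadjusted p under 0.05, all lower in litter B. Of the 23 peroxisomal genes 8 did, with 4 lower and 4 higher, among the latter Pex11a (difference 0.40) and Acot4 (0.63). Over the whole table, 171 genes past the adjusted threshold were higher and 525 lower in litter B. Several stromal and fat markers also differed between the litters. The fibroblast marker sum was 521 to 842 in litter A and 285 to 483 in litter B (exact p = 0.002165), and the part of this in the litter differences was not tested.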

How the data were processed

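Distal colon of 12 mice, taken at full thickness, was profiled by mRNA sequencing. The labels give the genotype, litter and sex of each mouse. Tools named in the submitters' processing notes are CASAVA, kallisto and sleuth, with the build mm10. By the authors' methods kallisto turned the reads into TPM. The deposited signal is this TPM after one further scaling between mice, as the unequal totals show. The tests planned for plain TPM were applied to it. The deposited columns of the authors' own test were not used. Each mouse had 18654 to 19752 genes above 0. Without read counts the precision of single values is known only from the spread between mice. The mice are separate animals of 2 litters.

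From 113974 entries, 781 repeats of a transcript were removed. The 28 symbols that had turned into dates were renamed by Ensembl identifier, and transcripts without a symbol made up at most 0.0632% of a total. The 29 genes have 141 transcripts, of which 136 carry the same version in GENCODE M21.

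The main tests used limma 3.58.1 under R 4.3.3 (lmFit, eBayes with trend, two-sided, Benjamini-Hochberg over all genes) on log2(normalized TPM + 0.5) of genes averaging 0.5 or more, which understates changes of low genes. The genotype fit had no covariate, the litter fit kept genotype, and another fit added their product. Single genes were also compared by exact permutation over the 924 splits of 6 mice against 6. With 200 of 15879 genes changed by 1 on the log2 scale in simulated data, limma recovered 78% for genotype (2.5% of calls wrong), 74.5% for litter (2.61% wrong) and 29.5% for the product (9.23% wrong).

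The genes and the lists of pathway and marker genes were chosen with earlier results of these data known. Values in every mouse are given for genes of the set with an unadjusted p under 0.05 by genotype or litter and for the 3 with the highest levels. Named genes of the other lists are those with an adjusted p under 0.05, or otherwise from the 3 with the lowest p of each list. Alternatives were pseudocounts of 0.1 and 1, filters at a mean of 0.1 or 5 or none, equal totals, quantile normalization, no trend, sex, litter or no covariate, females or each litter or genotype alone, other transcripts, and leaving out each mouse. The fit without both mice high in fat markers was added after the data had been seen. Other software was pandas 2.3.3, NumPy 2.4.6 and SciPy 1.17.1 under Python 3.11.15, with figures by matplotlib 3.10.9. Promoters are those of RefSeq on GRCm38.p6.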

Additional observations from a re-analysis of the deposited data

Results flagged for a closer look

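Each group of 6 mice was examined for a mouse whose gap to its nearest neighbour exceeded 0.625 of the range of the group (Dixon's 95% limit), in 29 genes and 2 genotypes. Of these 58 groups 4 held such a mouse, where chance gives about 1 in 20. Hadhb was 248.3 in Spry2IEKO replicate 5 and 135.1 to 171.7 in the other 5 Spry2IEKO mice. Pdk4 was 18.70 in the same mouse and 2.07 to 4.861 in the others. Acsl5 was 82.62 in Spry2IEKO replicate 4 and 58.52 to 66.5 in the others. Fabp1 was 0.5944 in Spry2FF replicate 13 and listed at 0 in the other 5 Spry2FF mice. With 5 mice at 0 the rule flags any value above 0, so the Fabp1 flag carries no weight. Spry2IEKO replicates 4 and 5 are also the mice with the highest white adipocyte markers, and whether that bears on these values was not tested.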

How the results depend on the processing

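The count of genes past an adjusted p of 0.05 by genotype was 5 over the whole table, and 3, 1 and 3 with filters at a mean of 0.1, none and 5, 2 with quantile normalization, 3 without the trend, 1 with sex as a covariate, 2 in females, 2 and 1 in litters A and B alone, and 1 without both mice high in fat markers. By litter it was 696, and 422 without a filter, 1456 with equal totals, 1 in females, 1 in Spry2FF and 1 in Spry2IEKO mice alone, and 17 without both mice high in fat markers. The product gave 2, and 0 with the filter at 5 and 7 without both mice. With 1 mouse left out the counts ran from 1 to 11, from 180 to 957 (lowest without Spry2IEKO replicate 5) and from 2 to 5. None of the 28 genes described here passed by genotype under any of these. By litter 2 passed with equal totals, Oxct1 (-0.29, adjusted p = 0.0492 by limma) and Echs1 (-0.23, adjusted p = 0.0142 by limma), a scaling under which the median of all genes was -0.12. Under it 2 of the 28 were above and 26 below 0. By litter 10 of the 28 then had an unadjusted p under 0.05, all lower in litter B, beside 26.6% of all genes. With quantile normalization 1 did (Echs1, lower), beside 20.3% of all genes. The litter calls of the whole table split into 171 higher and 525 lower as deposited, 105 and 1351 with equal totals, and 209 and 268 with quantile normalization. Genes of the set with an exact p under 0.05 numbered 3 by genotype and 3 by litter, and 1 (Bdh1) and 5 without the largest transcript of each gene. Without single mice they numbered 2 to 4 by genotype and 1 to 3 by litter. No share of all genes by the exact test is given, so these counts have no background beside them. The 8 genes with an unadjusted p under 0.05 kept their direction in every limma fit run on them, including those without 1 mouse (the filter at 5 leaves out Ppara). Without its largest transcript Echs1 turned from -0.15 to 0.40 by litter, and the other 7 kept their direction. Of these, Oxct1 moved from -0.21 to -1.75 and Cpt2 from -0.29 to -1.07 by litter. Mice could not be paired one to one because they share no replicate numbers between groups. The genotype fit with litter as a covariate, which matches by litter, called 6 genes over the whole table and 0 of the 28. The number of mice and the unknown number of reads per gene limit what could be seen, and the genotypes differ in sex ratio.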
